A study of Drosophila melanogaster with 12 samples.

Results

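let-7, miR-100 and miR-10 are 3 microRNAs of Drosophila melanogaster. They were followed here through 12 small RNA libraries, 9 from ovaries and 3 from the ovarian somatic cell line OSC. A read was given to one of them if it began with the leading 18 nt of the mature 5p arm. This found 14 distinct sequences of the 95922 listed over all libraries, 5 for let-7, 2 for miR-100 and 7 for miR-10. All 14 were listed in both total small RNA libraries, krimp heterozygous and krimp mutant, and none in the other 10. The members were chosen by name and sequence at a time when their reads and shares in these libraries were already known, so their levels and ratios are a description and carry no test.

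MicroRNAs are short RNAs that guide an Argonaute protein to messenger RNAs and lower their output. In flies, let-7 and miR-100 are cut from one long transcript that also holds miR-125. This let-7 complex is known for its induction by the steroid hormone ecdysone late in development, and let-7 is a conserved regulator of developmental timing. miR-10 lies in the Antennapedia Hox gene complex, a position conserved across animals, and its sequence places it in the same old family as miR-100.

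Krimper, the product of krimp, is a Tudor domain protein of the germline piRNA pathway, which silences transposable elements with RNAs bound by Piwi, Aub and AGO3. Total small RNA and the RNA bound by Piwi and Aub were sequenced from ovaries of krimp heterozygous females, the study's control, and of krimp mutant females. AGO3-bound RNA came from krimp heterozygous, OregonR wildtype and aub mutant ovaries, and RNA bound by ectopically expressed myc-Piwi, myc-Aub and myc-AGO3 from OSC with krimp knocked down. The labels name no alleles, ages or numbers of flies, and the heterozygous flies carry a krimp mutation too. Each group had 1 library, so no replicate stands behind any difference here and p-values are not used. Neither krimp nor aub RNA was measured, so the genotypes could not be checked.

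The total libraries listed 24979879 reads in the heterozygote and 20695092 in the mutant, over sequences of 20 to 30 nt with at least 100 reads each. Depth below that minimum is unknown, and levels are given as rpm, the reads of a microRNA scaled to the listed reads of its library, with exact Clopper-Pearson 95% intervals. Those intervals cover counting error only and treat PCR reads as independent. Of 77 named microRNA arms searched for by short keys, 59 were listed in the heterozygous and 58 in the mutant total library. The 6 maternal and ovary microRNAs used as tissue markers were all listed in both. Of the muscle markers, miR-1 had 101 reads in the heterozygote and was not listed in the mutant, and miR-133 was listed in neither. That is 4.04 rpm in the heterozygote, while an unlisted form in the mutant could reach 4.78 rpm, so no difference in miR-1 was detectable between them. miR-1 was also listed in the myc-AGO3 library of OSC, a somatic cell line, with 308 reads or 789 rpm. The source of those reads was not tested, so whether miR-1 marks muscle alone in this series is not known. The neuronal marker miR-124 was listed in neither.

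The most abundant form of each member is shown first because the bases at positions 2 to 8, the seed in capitals, set which messenger RNAs a microRNA can pair with. T stands for U, as deposited.

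let-7: tGAGGTAGtaggttgtatagt

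miR-100: aACCCGTAaatccgaacttg

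miR-10: aCCCTGTAgatccgaatttgtt

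The 3 seeds differ, and no other microRNA of the searched names shared one of them. miR-100 and miR-10 are nevertheless alike, with 16 of 20 bases identical when both are read from the 5′ end. Counted from 1 at that end, with the miR-100 base first, they differ by A2C, C5T, A9G and C17T. The first pair of these changes lies in the seed. let-7 matched miR-10 at 4 of 21 positions and miR-100 at 3 of 20. With 4 differences in 18 nt, no read could be given to both miR-100 and miR-10.

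In the RefSeq annotation of Release 6, mir-100, mir-let7 and mir-125 lie within the transcript lncRNA:let7C on chromosome 2L, which holds 3 microRNA genes. mir-10 lies within lncRNA:CR42651 on chromosome 3R, the only microRNA gene there. The deposited data were processed with another build, dm3, so no coordinates are given.

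As a share of listed reads in total small RNA, miR-10 was higher in krimp mutant than in krimp heterozygous ovaries. On that scale let-7 was lower and miR-100 was close to level. miR-10 had 42460 reads in the heterozygote, or 1699.8 rpm (95% interval 1684 to 1716). In the mutant it had 103444 reads, or 4998 rpm (4968 to 5029). The mutant share was 2.94-fold higher, a log2 ratio of 1.56 (1.54 to 1.57). By reads, miR-10 stood at place 28 of 59 listed microRNAs in the heterozygote and 18 of 58 in the mutant.

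let-7, the timing microRNA, differed the other way. It had 40004 reads in the heterozygote, or 1601 rpm (1586 to 1617), and 18297 in the mutant, or 884 rpm (871 to 897). The mutant share was 1.81-fold lower, a log2 ratio of -0.86 (-0.88 to -0.83). By reads it stood at place 30 of 59 in the heterozygote and 34 of 58 in the mutant.

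miR-100 was the rarest of the 3 in both libraries. Its reads were nearly equal, 967 in the heterozygote and 968 in the mutant, which is 38.7 rpm (36.3 to 41.2) and 46.8 rpm (43.9 to 49.8). The mutant share was 1.21-fold higher, a log2 ratio of 0.27 (0.14 to 0.40). On this scale it is the smallest difference of the 3, and it rests on the difference in listed totals more than on reads. In rpm the order in the heterozygote was miR-10, let-7, miR-100, with miR-10 and let-7 within a factor of 1.06. In the mutant the order was the same, with the leading pair far apart. No spread between libraries is known against which these neighbours could be set.

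**Figure D1:**
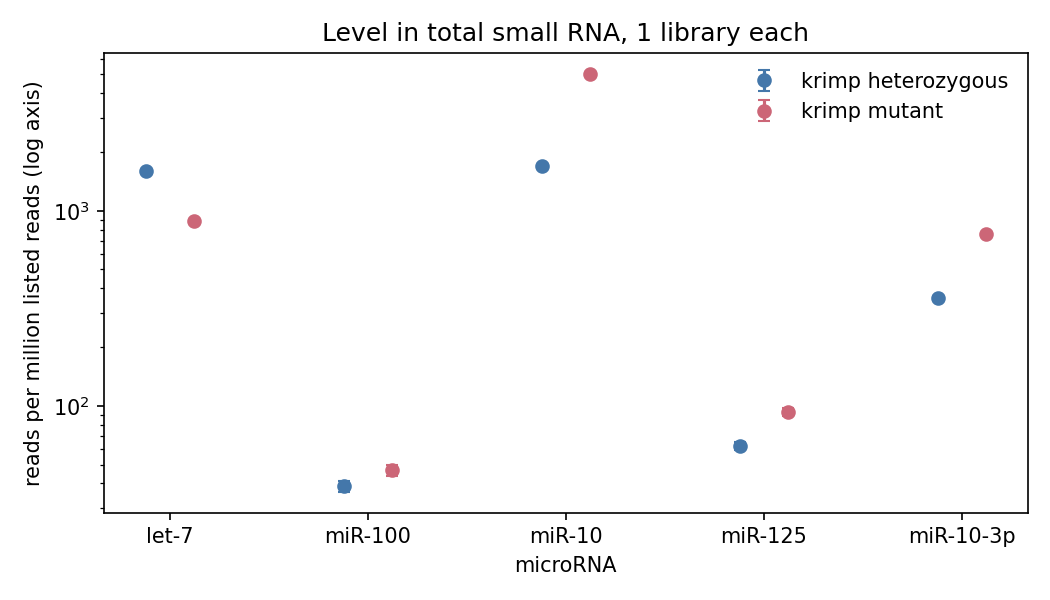
Level in rpm of listed reads (log axis) of let-7, miR-100, miR-10, miR-125 and miR-10-3p in krimp heterozygous and krimp mutant total small RNA, 1 library each, with exact 95% counting intervals, most of them smaller than the points. let-7 is the 1 microRNA shown that is lower in the mutant (884 against 1601 rpm), and miR-10 has the widest gap (4998 against 1699.8 rpm).

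An rpm value also depends on the other RNAs listed beside a microRNA, and these differed between the 2 total libraries. The microRNAs of the key list were 37.9% of heterozygous and 27.8% of mutant listed reads, 2S rRNA was 2.56% and 5.06%, reads of 20 to 24 nt were 70.2% and 77.4%, and reads that begin with U, as most piRNAs do, were 66.4% and 39.1%. Their part in the levels of the members was not tested beyond a change of denominator. As a share of microRNA reads, miR-10 was 0.448% in the heterozygote and 1.80% in the mutant, 4.02-fold higher. let-7 was 0.422% and 0.319%, 1.32-fold lower. miR-100 was 0.0102% and 0.0169%, 1.65-fold higher. The directions were thus the same on both scales, while the size of each difference was not. As a share of microRNA reads let-7, not miR-100, had the smallest difference of the 3.

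Ratios between microRNAs of the same library need no denominator. There were 1.06 miR-10 reads per let-7 read in the heterozygote (1.05 to 1.08) and 5.65 in the mutant (5.57 to 5.74), a 5.33-fold difference. let-7 outnumbered miR-100, its partner on the same transcript, 41.4 to 1 in the heterozygote (38.8 to 44.1) and 18.9 to 1 in the mutant (17.7 to 20.2). The 2 microRNAs of one transcript therefore did not keep their ratio between the 2 libraries, and the difference exceeded counting error. miR-10 reads per miR-100 read were 43.9 in the heterozygote (41.2 to 46.8) and 106.9 in the mutant (100.3 to 114.0).

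miR-125, the remaining member of the let-7 complex and the fly relative of worm lin-4, was nearer to miR-100 than to let-7 in its ratio.

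miR-125: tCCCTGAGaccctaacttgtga

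It had 1559 reads in the heterozygote (62.4 rpm) and 1923 in the mutant (92.9 rpm), a log2 ratio of 0.57 (0.48 to 0.67). Of the 3 microRNAs of the complex, 2 were thus higher in share in the mutant and let-7 alone was lower, and none passed a 2-fold difference. Of the 57 microRNA arms listed in both total libraries, 22 were higher and 35 lower on that scale. On the scale of microRNA reads the split was the same, again with 2 higher and 1 lower, and miR-125 was 2.04-fold higher. There, 39 of the 57 arms were higher and 18 lower, and 15.8% were over 2-fold higher, so the split is near that of all arms. Per miR-100 read there were 1.61 miR-125 reads in the heterozygote (1.49 to 1.75) and 1.99 in the mutant (1.84 to 2.15). Per miR-125 read there were 25.7 let-7 reads in the heterozygote (24.4 to 27.0) and 9.51 in the mutant (9.08 to 9.98). The summed level of the complex, 1703 rpm in the heterozygote and 1024 rpm in the mutant, is mostly let-7.

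Each microRNA is cut from a hairpin with 2 arms, and of the opposite arms searched for, the one of miR-10 was listed. The 3p arms of let-7 and miR-100 were listed in neither total library, where a sequence with up to 99 reads would not appear.

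miR-10-3p: cAAATTCGgttctagagaggttt

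miR-10-3p had 8925 reads in the heterozygote (357 rpm) and 15652 in the mutant (756 rpm), a log2 ratio of 1.08 (1.04 to 1.12). Both arms of the hairpin were thus more than 2-fold higher in the mutant. The 5p arm differed more, with 4.76 reads per 3p read in the heterozygote (4.65 to 4.87) and 6.61 in the mutant (6.50 to 6.72). The other Hox cluster microRNAs gave no comparison, as miR-iab-4 had 100 reads in the heterozygote, was not listed in the mutant, and miR-iab-8 was listed in neither.

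Against the other microRNAs, miR-10 lay near the top of the ratios and let-7 towards the bottom. Among the 57 arms listed in both total libraries, 10.5% were over 2-fold higher in the mutant as a share of listed reads and 7.02% over 2-fold lower. miR-10 and its 3p arm were 2 of the 6 higher ones, and no member was among the 4 lower ones. By log2 ratio from the highest, miR-10 stood at place 2, behind miR-286, which had 239 and 603 reads. miR-100 stood at place 17 and let-7 at place 48, next to bantam with a log2 ratio of -0.85. The median over the 57 was -0.23, with 22 higher and 35 lower. As a share of microRNA reads, 15.8% were over 2-fold higher and 0% over 2-fold lower, the median was 0.22, and 39 were higher and 18 lower. let-7 remained lower on that scale. Over all 4536 18 nt starts listed in both libraries, 39.7% were over 2-fold higher in the mutant and 20.9% over 2-fold lower, with a median of 0.33. Since the members were chosen with these ratios known, their places among the rest are given without further reading.

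**Figure D2:**
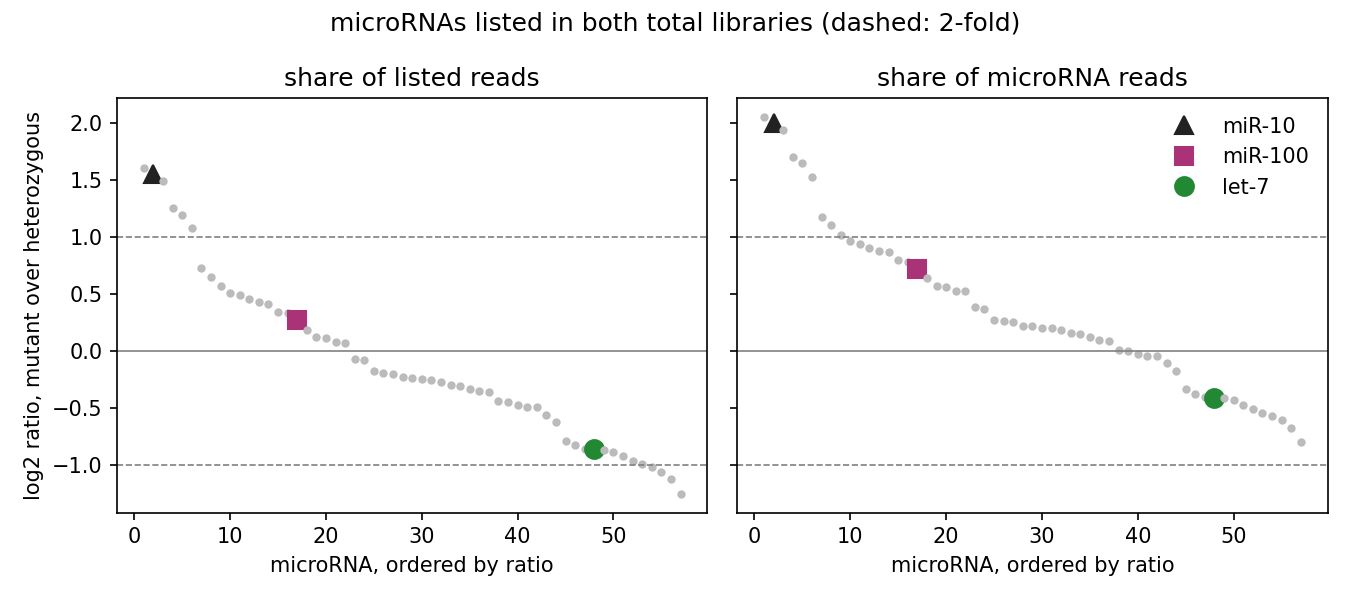
log2 ratio of shares, mutant over heterozygous, for the 57 microRNA arms listed in both total libraries, ordered by ratio, as shares of listed reads (left) and of microRNA reads (right). Dashed lines mark 2-fold. The large symbols are miR-10 (1.56 and 2.01), miR-100 (0.27 and 0.72) and let-7 (-0.86 and -0.41).

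The ovary markers, like let-7 and most arms listed in both libraries, were lower in the mutant as a share of listed reads. All 6 maternal and ovary microRNAs, miR-310 to miR-313, miR-318 and miR-994, were lower on that scale, 1 of them over 2-fold. Their median log2 ratio was -0.63. Their summed level was 103687 rpm in the heterozygote and 56009 rpm in the mutant. Of all 57 arms, 35 were lower and 7.02% over 2-fold lower, with a median of -0.23. As a share of microRNA reads 4 of the 6 markers were lower and 2 higher, with a median of -0.18. Of the 57 arms, 18 were lower and 39 higher on that scale, with a median of 0.22. Of the 6 early zygotic microRNAs, miR-286 was listed in both libraries at 9.57 and 29.1 rpm, and 5 were listed in neither. The part that cell makeup has in the levels of let-7 and miR-10 was not tested. In whole ovaries, a change in the number of cells that make a microRNA and a change in its amount per cell cannot be told apart.

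The length forms show how the 3′ ends of each member varied. let-7 was mostly 21 nt long, and the capitals below mark bases past that leading form.

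let-7, 20 nt: tgaggtagtaggttgtatag

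let-7, 22 nt, A: tgaggtagtaggttgtatagtA

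let-7, 22 nt, T: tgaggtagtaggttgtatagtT

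let-7, 23 nt: tgaggtagtaggttgtatagtAA

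The 21 nt form had 28183 reads in the heterozygote and 12751 in the mutant, which is 70.5% (70.0 to 70.9) and 69.7% (69.0 to 70.4) of let-7 reads. The 22 nt form with A had 8510 and 3663 reads, or 21.27% (20.87 to 21.68) and 20.02% (19.44 to 20.61). The 20 nt form had 2793 and 1608 reads, or 6.98% (6.73 to 7.24) and 8.79% (8.38 to 9.21). The shortest listed form was thus a larger part of let-7 in the mutant, beyond counting error. The 23 nt form had 279 and 151 reads and the 22 nt form with T had 239 and 124, each under 1% of let-7. Mean length was 21.16 nt in the heterozygote and 21.14 nt in the mutant. All 5 forms were lower in share of listed reads in the mutant, by 1.44-fold for the 20 nt form to 1.92-fold for the 22 nt form with A. Over all 4536 18 nt starts listed in both libraries, 2567 were higher and 1969 lower. The forms are parts of 1 microRNA in the same library pair, so their shared direction adds no separate support.

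miR-10 was mostly 22 nt long, with a wider range of forms that reached 25 nt.

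miR-10, 20 nt: accctgtagatccgaatttg

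miR-10, 21 nt: accctgtagatccgaatttgt

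miR-10, 23 nt, A: accctgtagatccgaatttgttA

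miR-10, 23 nt, T: accctgtagatccgaatttgttT

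miR-10, 24 nt: accctgtagatccgaatttgttAA

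miR-10, 25 nt: accctgtagatccgaatttgttAAA

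The 22 nt form had 33569 reads in the heterozygote and 86795 in the mutant, or 79.1% (78.7 to 79.4) and 83.9% (83.7 to 84.1) of miR-10 reads. The 21 nt form had 6761 and 12523 reads, or 15.9% (15.6 to 16.3) and 12.1% (11.9 to 12.3). The leading form was thus a larger part of miR-10 in the mutant, and the 21 nt form a smaller one. In let-7 it was the form shorter than the leading one that had the larger part in the mutant.

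All 7 miR-10 forms were higher in share of listed reads in the mutant, from 1.93-fold for the 20 nt form to 3.69-fold for the 23 nt form with T. As with let-7, the forms are parts of 1 microRNA, so their shared direction adds no separate support. The 20 nt form had 548 and 876 reads in the heterozygote and the mutant. The 3 forms longer than 22 nt by A alone were together 1205 of the heterozygous and 2098 of the mutant reads, or 2.84% and 2.03%. They had 383 and 745 reads at 23 nt, 637 and 1034 at 24 nt, and 185 and 319 at 25 nt. The form longer by 1 T had 377 and 1152 reads, or 0.888% (0.801 to 0.982) and 1.11% (1.05 to 1.18). Forms extended by A were thus a smaller part of miR-10 in the mutant, and the form extended by T a larger one, with intervals that do not overlap. Whether these added bases are in the genome was not analysed here.

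miR-100 was listed as 2 forms that differ by 2 nt, with none between them. The 22 nt form carries TG past the 20 nt form.

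miR-100, 22 nt: aacccgtaaatccgaacttgTG

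The 20 nt form had 712 reads in the heterozygote and 673 in the mutant, or 73.6% (70.7 to 76.4) and 69.5% (66.5 to 72.4). The 22 nt form had 255 and 295 reads, or 26.4% (23.6 to 29.3) and 30.5% (27.6 to 33.5). The 22 nt form was 4.10 percentage points larger in the mutant, with a Newcombe 95% interval of 0.0852 to 8.11 points, at the edge of counting error. A 21 nt form, if present, had at most 99 reads in each library, which is up to 9.29% of the heterozygous miR-100 reads it would belong to. Since 20 nt is the shortest length listed, still shorter miR-100 was not measured.

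**Figure D3:**
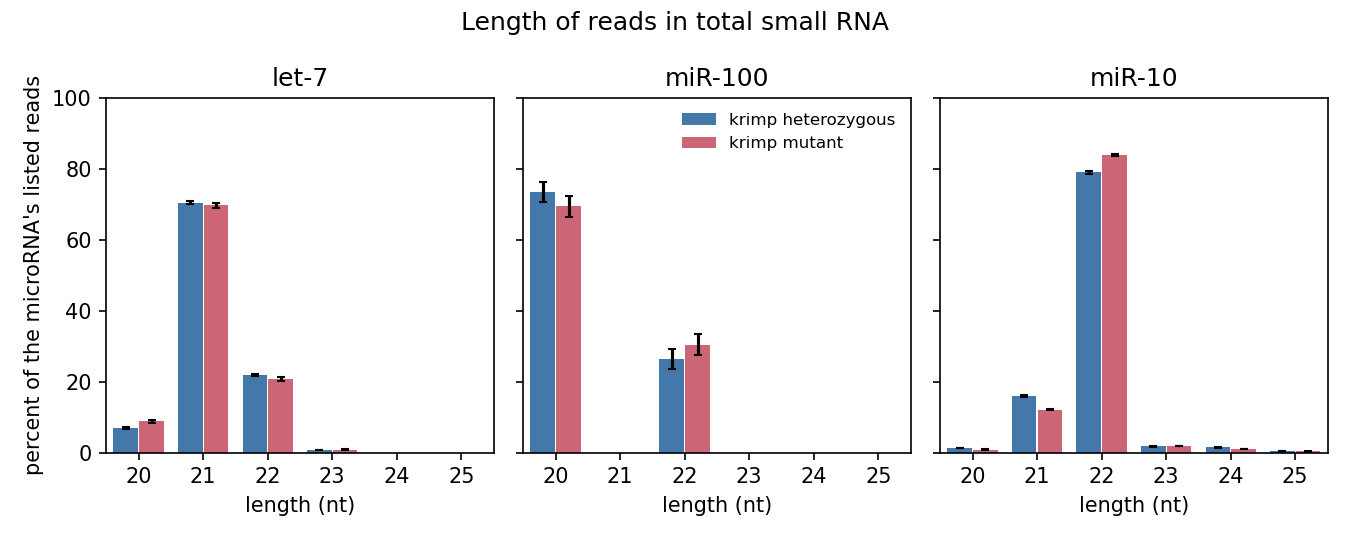
Percent of each microRNA's listed reads by length in nt, in krimp heterozygous and krimp mutant total small RNA, with exact 95% counting intervals. let-7 peaks at 21 nt (70.5% and 69.7%), miR-10 at 22 nt (79.1% and 83.9%), and miR-100 is listed at 20 and 22 nt but not at 21 nt.

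**Figure D4:**
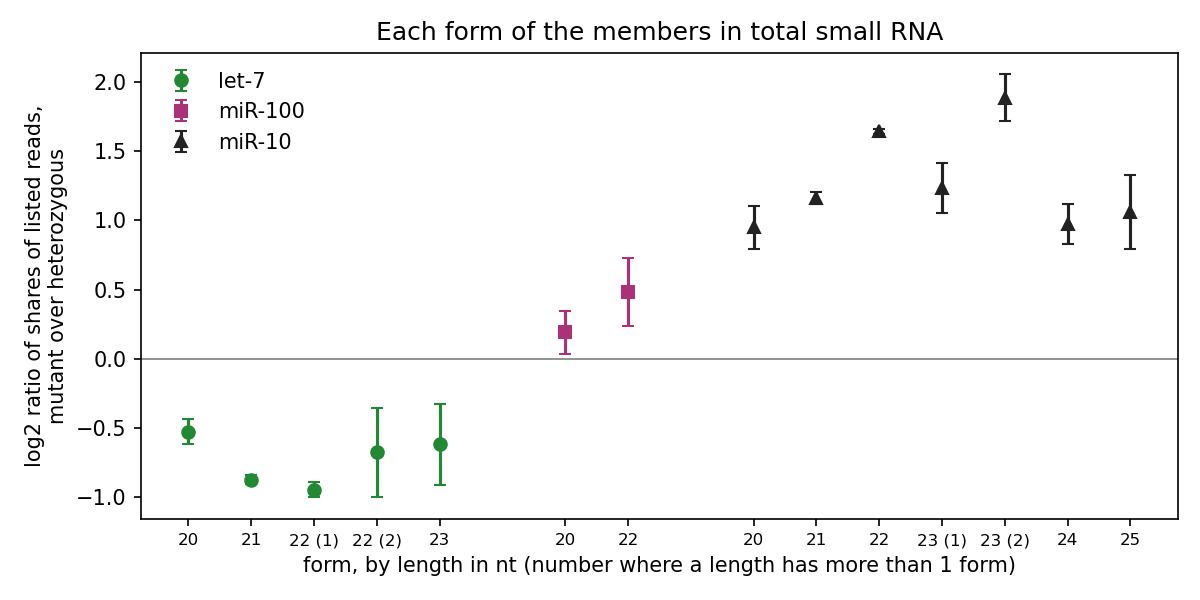
log2 ratio of the share of listed reads, mutant over heterozygous, for each of the 14 forms, with exact 95% counting intervals. At 22 nt of let-7 and 23 nt of miR-10, form 1 ends in A and form 2 in T. All 5 let-7 forms lie below 0, and all 7 miR-10 forms and both miR-100 forms lie above it. Forms of 1 microRNA are not separate measurements of its difference.

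Few reads lay close to the members without matching them. A 21 nt let-7 sequence with the substitution T6G, within the seed, had 129 reads in the heterozygote, 0.322% of let-7, and was not listed in the mutant. For miR-10, a 21 nt sequence that starts 1 nt later had 189 reads in the heterozygote, and a 22 nt sequence that starts 1 nt earlier had 155 in the mutant. These are 0.445% and 0.150% of miR-10 reads. At the same part of its microRNA in the other library, the T6G sequence would fall under the minimum of 100 reads, as would the earlier start. The absence of these from the other library therefore shows no difference. The later start would pass the minimum in the mutant and was not listed there. Other 18 nt starts also held a member's seed at bases 2 to 8. None of them was a microRNA of the searched names, and they were not compared with a table of mature sequences. They had few reads beside let-7 (214 in the heterozygote and 144 in the mutant) and miR-10 (1154 and 687). For miR-100 there was 1 such start, with 675 reads in the heterozygote against 967 of miR-100 itself, and it was not listed in the mutant.

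No immunoprecipitate listed a member. The Piwi-family proteins bind piRNAs, and microRNAs made up 0.0249% of listed reads in heterozygous Piwi, 0.00295% in heterozygous Aub and 0.0427% in heterozygous AGO3. In mutant Piwi and mutant Aub they were 0.0525% and 0.0173%, and AGO3 from OregonR wildtype or aub mutant ovaries listed none of the key list. If each of the 5 let-7 forms had 99 unlisted reads in heterozygous Piwi, let-7 would be at 26.3 rpm there, so its share was at least 60.9-fold lower than in total small RNA. By the same reckoning miR-10 was at least 46.2-fold lower and miR-100 at least 3.68-fold lower. In heterozygous Aub the bounds were 12.9-fold for let-7 and 9.80-fold for miR-10, and for miR-100 the limit lies above its level in total RNA. In mutant Piwi they were 28.1-fold for let-7, 113-fold for miR-10 and 3.72-fold for miR-100. The bounds take in the forms known from total RNA only, and they are shares of listed reads that hold much 2S rRNA, 7.73% in heterozygous Piwi, 66.4% in heterozygous Aub and 24.6% in mutant Piwi.

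The read minimum also sets what these absences can tell about microRNAs among themselves. Heterozygous Piwi listed 14 microRNAs, of which miR-275 was the least abundant in total RNA, at 4163 rpm against 1699.8 for miR-10. With the microRNA makeup of total RNA, the 4678 microRNA reads in heterozygous Piwi would hold 13.9 reads of the leading let-7 form, 16.6 of miR-10 and 0.351 of miR-100, all under 100. In mutant Piwi the 8264 microRNA reads would hold 18.3 reads of the leading let-7 form, 124.9 of miR-10 and 0.968 of miR-100. Only the value for miR-10 passes the minimum, and the form was not listed there. Mutant Piwi listed 14 microRNAs, the least abundant in mutant total RNA being miR-275, at 3639 rpm against 4998 for miR-10. By reads miR-10 stood at place 18 in mutant total RNA. Some microRNAs more abundant there than miR-10 were thus not listed in mutant Piwi either, and the absence is not particular to miR-10. In OSC with krimp knocked down, myc-AGO3 listed 18 microRNAs at 4.90% of reads. At the makeup of heterozygous ovaries those would hold 56.9 reads of the leading let-7 form and 67.7 of miR-10, both under the minimum. All these counts start from listed microRNA reads, so they leave out microRNA sequences under 100 reads and can be too low. Whether a level lower than in ovaries could be seen there is therefore not known. On these counts, a leading form 1.76-fold higher for let-7 or 1.48-fold higher for miR-10 would have reached the minimum. miR-1, expected there at 0.204 reads of its leading form, had 308, so the microRNA makeup of that library was not that of ovaries.

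Likeness to the members was measured over the 7 krimp ovary libraries. By Pearson's r of log2(rpm + 10), among the 14 microRNAs listed in at least 3 of these libraries, miR-33 was closest to let-7 at 0.996. miR-14 was closest to miR-100 at 0.994 and to miR-10 at 0.989. Next came miR-14 (0.994) and bantam (0.992) for let-7, miR-276a (0.989) and miR-184 (0.988) for miR-100, and miR-184 (0.984) and miR-263a (0.983) for miR-10. The members are listed in 2 of the 7 libraries, so these values mostly set total RNA apart from immunoprecipitates. As a share of listed reads, 35 of the 57 arms were lower in the mutant total library, let-7 among them. miR-33 was at 5265 rpm in the mutant and 12516 rpm in the heterozygote. miR-14 was near level at 7540 and 7876 rpm, and bantam was at 25124 and 45421 rpm.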

How the data were processed

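Small RNAs of 18 to 29 nt were cut from gels and made into TruSeq libraries, per the labels' protocols. The deposited files give raw read counts per distinct sequence, with none under 100 reads and none shorter than 20 nt. The build was dm3, per the submitters' processing notes. The aligner is not given in the sources used here, nor is the trimmer.

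Groups came from the sample titles, with 1 library each. The krimp mutant Aub library, a mutant by title and genotype, also bears the word control in its source name and was kept as mutant.

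No table of mature sequences was used. Each microRNA was found in the total libraries by bases 1 to 8 and 10 to 15, known from general knowledge, and the most abundant matching 18 nt start was taken. These keys were written after the files had been seen, names were not matched to a reference, and 1 key, miR-981, was dropped because it had met another sequence. Of 77 names, 60 were listed in a total library. Gene symbols and chromosomes came from the RefSeq table of Release 6. Shares are of listed reads. 2S rRNA was any sequence within 3 edits of the most abundant 30 nt sequence of Oregon R AGO3. Ratios have exact conditional 95% intervals. The named microRNAs were the members, their opposite arms, miR-125, Hox cluster microRNAs, those sharing a seed, the 3 most like each member, and marker lists, with 2-fold as the limit for higher or lower. The lists and members were chosen with earlier results of these data known. The grouping and ratio steps were tested on simulated data. Python 3.11.15, numpy 2.4.6, scipy 1.17.1, edlib 1.3.9.post1 and matplotlib 3.10.9 were used. Alternatives are in the closing section.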

Additional observations from a re-analysis of the deposited data

How the results depend on the processing

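Each member's log2 ratio kept its sign under all 8 alternatives run, 24 in total, of which 10 left the value exactly as it was. As a share of microRNA reads it was -0.41 for let-7, 0.72 for miR-100 and 2.01 for miR-10. As a share of 20 to 24 nt reads it was -0.996, 0.13 and 1.42. Without 2S rRNA it was -0.82 for let-7 and 1.59 for miR-10, and with the leading form alone 1.64 for miR-10. These moved beyond counting error, and the denominator chosen or the form counted moves them by construction. A 20 nt start changed no count, and 99 reads for unlisted forms could change none, since all 14 forms were listed in both total libraries. The remaining values, with 1 mismatch, a 5′ end shifted by up to 2 nt, without 2S rRNA for miR-100 or with the leading form for let-7 and miR-100, stayed within the counting interval, as did the share of the most common length with 1 mismatch. The shares of microRNA reads and of 20 to 24 nt reads and the leading form alone were chosen after seeing the data. The planned share of reads of a reference table of microRNAs and the planned match to the exact mature sequence were not run, since no such table was used. No paired analysis was possible because each group had 1 library. Reads under 100 per sequence were not measured, which limits miR-100 most, as its forms had 255 to 712 reads.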
